A study of Mus musculus with 8 samples.

Results

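*Sox* genes encode transcription factors that bind DNA through a high mobility group (HMG) box, and 10 of them were followed here in sorted cells of the neonatal mouse cochlea. The members were the genes whose Ensembl identifier carries the symbol *Sox2* or *Sox21* (SoxB), *Sox4* or *Sox11* (SoxC), *Sox5*, *Sox6* or *Sox13* (SoxD), *Sox8*, *Sox9* or *Sox10* (SoxE) in the NCBIM37 (mm9) annotation. They make 10 of the 36536 genes in the count files, and all 10 passed the filter on low counts in every comparison. A further identifier with the symbol *Sox4*, 405 bases long and lying inside the first, was at 0 in every library and was left out, so the level of *Sox4* may miss reads that fell on both.

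The libraries came from freshly dissected cochleas of mice with the bacterial artificial chromosome transgene Tg(Lfng-EGFP)HM340Gsat on a mixed B6 and FVB background, sorted by fluorescence without culture or treatment. Before sorting, the stria vascularis, Reissner's membrane and lateral wall were separated off at P1, and at P6 only in part. The tissue sorted thus differed with age, and effects of age and of dissection cannot be told apart. The 4 groups were P1 GFP+, P1 GFP-, P6 GFP+ and P6 GFP- cells, from postnatal day 1 and postnatal day 6, with 2 replicate libraries each. All 4 groups carried the transgene. GFP+ cells were the brightest cells and come from border, inner phalangeal, outer pillar and Deiters' cells, since inner pillar cells express it only faintly, while GFP- cells are those without fluorescence. Cells with faint GFP, thought to be inner pillar and inner hair cells, were in neither fraction. Nothing in the labels says whether replicates came from separate animals, so p-values measure only the spread between these libraries, which may be technical.

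Sox proteins bend DNA by binding in its minor groove and usually act together with partner factors, and their groups are defined by the similarity of the HMG box. In the developing inner ear, Sox2 is required for the prosensory domain that gives rise to hair cells and supporting cells, and it stays on in supporting cells. SoxC factors are known from progenitors and immature neurons, SoxD factors lack an activation domain of their own and work as partners of other Sox proteins, for example in cartilage, and SoxE factors act in cartilage, neural crest derivatives and the otic epithelium.

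The similarity that defines the groups can be seen in the coding sequence of the HMG box. The first 60 bases of the box (20 of 71 codons, sense strand, NCBIM37) are shown for each member because every ratio of paralogs below is between genes that share this box. Within each group the first gene listed is the reference, and capitals mark the bases at which another member differs from it.

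For SoxB these are chr3:34549461-34549520 on the plus strand (*Sox2*) and chr14:118634780-118634839 on the minus strand (*Sox21*).
Sox2: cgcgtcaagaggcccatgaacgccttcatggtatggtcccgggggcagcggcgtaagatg
Sox21: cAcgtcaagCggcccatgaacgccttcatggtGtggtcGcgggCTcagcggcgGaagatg

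For SoxC these are chr13:29044660-29044719 (*Sox4*) and chr12:28027073-28027132 (*Sox11*), both on the minus strand.
Sox4: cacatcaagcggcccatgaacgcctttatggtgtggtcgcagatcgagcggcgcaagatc
Sox11: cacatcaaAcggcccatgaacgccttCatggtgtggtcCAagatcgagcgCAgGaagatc

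For SoxD these are chr6:143789743-143789802 (*Sox5*), chr7:122633226-122633285 (*Sox6*) and chr1:135282092-135282151 (*Sox13*), all on the minus strand.
Sox5: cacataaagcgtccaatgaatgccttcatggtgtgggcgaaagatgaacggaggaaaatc
Sox6: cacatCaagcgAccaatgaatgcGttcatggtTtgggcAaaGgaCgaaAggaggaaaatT
Sox13: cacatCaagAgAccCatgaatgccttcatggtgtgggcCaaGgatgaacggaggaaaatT

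For SoxE these are chr11:112644208-112644267 on the plus strand (*Sox9*), and on the minus strand chr17:25707117-25707176 (*Sox8*) and chr15:78993781-78993840 (*Sox10*).
Sox9: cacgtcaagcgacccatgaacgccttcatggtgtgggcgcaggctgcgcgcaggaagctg
Sox8: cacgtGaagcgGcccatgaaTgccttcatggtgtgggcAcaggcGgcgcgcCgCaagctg
Sox10: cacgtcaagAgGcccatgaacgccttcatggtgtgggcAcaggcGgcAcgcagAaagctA

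From 7 to 9 of the 60 bases differed within a group. Over the whole box of 213 bases, the 8 pairs within groups were 83.1% to 90.6% identical and the 37 pairs between groups 54.0% to 75.6%. The box of the SoxB and SoxC genes lies in 1 exon, as the whole annotated gene does, whereas the box of every SoxD and SoxE gene is split by 1 intron. Levels are given below as CPM, which are counts scaled by the total on genes in the library, and between genes only as RPKM, which are CPM scaled by exon length.

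The libraries held 17769024 to 67695039 counts on genes. All 8 supporting cell markers were higher in GFP+ cells at both ages, and 6 of 9 hair cell markers were higher as well. Markers of otic mesenchyme summed to 191 to 2141 CPM in GFP+ and 8696 to 13481 CPM in GFP- libraries, and P6 GFP+ replicate 2, with 2141 CPM against 588 CPM in replicate 1, stood apart. Over 773 genes more than 16-fold lower in GFP+ cells at P1, this library lay above P6 GFP+ replicate 1 by a median of 0.96 on the log2 scale, and the corresponding medians of the other groups were -0.13 to -0.017. Among P1 GFP- libraries, replicate 2 had higher *Sox2*, *Sox21* and *Sox8* levels and a higher sum of neuronal markers, 741 CPM against 238 CPM in replicate 1. Some of the results that rest on these libraries are also given without them. With 1 library left out, the group left with 1 library is assumed to vary like the groups that keep 2, and p-values then rest on those groups' spread alone. In bulk samples, fewer cells of a type and less RNA per cell cannot be told apart.

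Among the 10 genes, *Sox2* had the highest level per kilobase in GFP+ cells of both ages and *Sox11* and *Sox4* led in GFP- cells. In P1 GFP+ cells *Sox2* was at 245 ± 7.88 RPKM (SD, n = 2), followed by *Sox10* at 103 ± 2.80 and *Sox11* at 98.4 ± 2.59. In P1 GFP- cells the first gene was *Sox11* at 126 ± 12.7 RPKM, above *Sox10* at 44.9 ± 13.5 and *Sox4* at 42.0 ± 4.87, whose ranges overlapped. In P6 GFP+ cells *Sox2* at 131 ± 22.2 RPKM and *Sox10* at 119 ± 8.96 overlapped in range. *Sox4* led in P6 GFP- cells at 54.0 ± 4.69 RPKM, ahead of *Sox9* at 35.4 ± 3.29 and *Sox10* at 33.7 ± 1.96. The lowest of the 10 were *Sox8* in P1 GFP+ cells (3.15 ± 0.324 RPKM), *Sox5* in P6 GFP+ cells (2.25 ± 0.505) and *Sox6* in GFP- cells of both ages (1.76 ± 0.0925 at P1 and 2.23 ± 0.197 at P6). *Sox5* and *Sox8* overlapped in P6 GFP+ cells, as did *Sox6* and *Sox21* in P6 GFP- cells. These ranks depend on the exon length used, that of all annotated exons together. It was largest for *Sox5* (14376 bases) and *Sox6* (8852 bases), whose RPKM may be too low if shorter transcripts prevail.

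**Figure D1:**
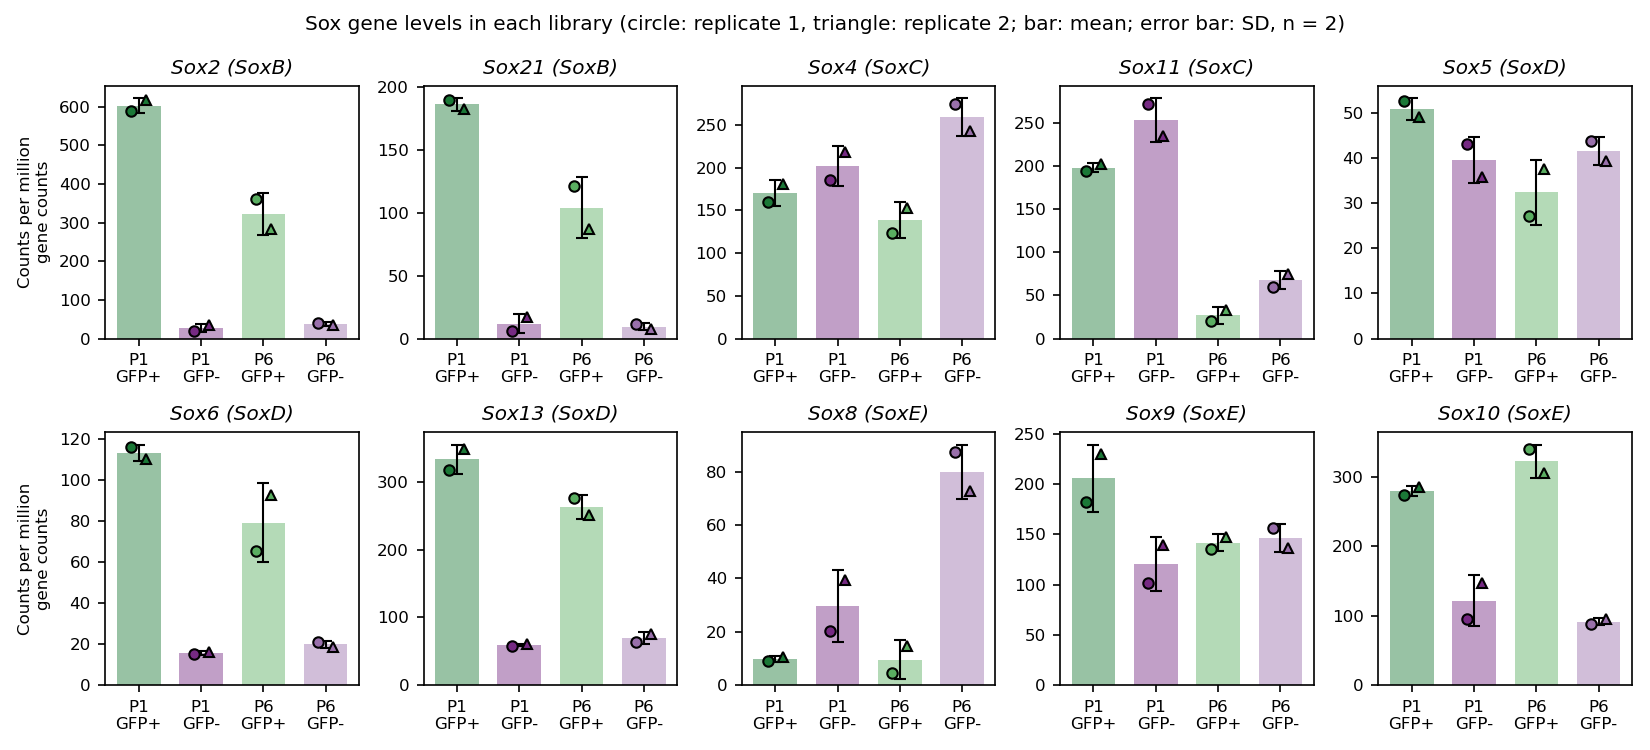
CPM of the 10 *Sox* genes (vertical axes, starting at 0, each with its own scale) in P1 and P6 GFP+ and GFP- cells. Bars are means of 2 libraries, error bars the SD, circles replicate 1 and triangles replicate 2; *Sox2*, *Sox21*, *Sox6*, *Sox13* and *Sox10* are higher in GFP+ cells at both ages, the *Sox8* points of GFP+ libraries lie under those of GFP- libraries, and *Sox11* is lower at P6 than at P1 in both fractions.

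Comparing GFP+ with GFP- cells asked which *Sox* genes distinguish bright supporting cells from the cells without fluorescence in the dissected tissue. A gene was called when the adjusted p-value of edgeR's quasi-likelihood test was below 0.01. At P1, 6 of the 10 were higher in GFP+ cells, where 16.6% of the 18682 genes tested were called higher, and 1 was lower, where 20.7% were. More than 4-fold higher were 4 of the 10, beside 6.46% of genes. At P6, 5 of the 10 were higher (7.72% of the 18294 genes tested) and 0 were lower (5.19%), with 2 more than 4-fold higher (4.88%). The P6 count of 0 lower genes was 3 by the DESeq2 test, which called 14% of genes lower. At an unadjusted p under 0.05, 8 of the 10 differed at P6, 3 of them lower, beside 44.9% of all genes in either direction. The median log2 fold change over the 10 was 1.09 at P1 and 0.88 at P6, beside 0.0075 and -0.017 over all genes tested. The groups did not overlap for 9 of the 10 at each age after TMM scaling, beside 79.5% of all genes at P1 and 72.7% at P6.

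**Figure D2:**
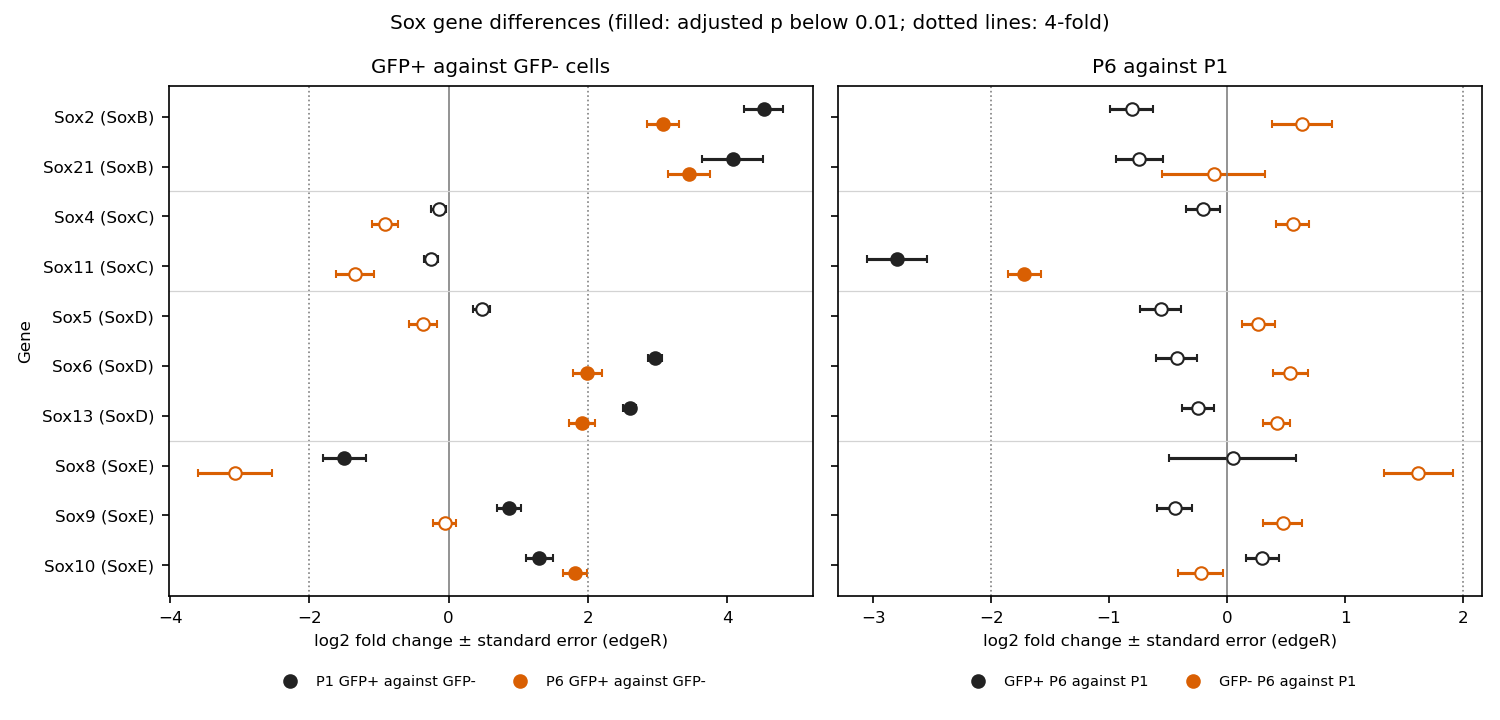
Log2 fold changes (horizontal axes) with standard errors from edgeR for each *Sox* gene (rows, ordered by group), with GFP+ against GFP- cells on the left and P6 against P1 on the right. Filled points have an adjusted p below 0.01; the left panel has 7 filled points at P1 and 5 at P6, and in the right panel *Sox11* is filled in both fractions and no other gene is.

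SoxB genes had the largest log2 fold changes in favour of GFP+ cells at both ages. *Sox2*, the prosensory factor, was at 589 and 616 CPM in the P1 GFP+ libraries and at 20.2 and 35.6 CPM in P1 GFP- cells. At P6 it was at 361 and 283 CPM in GFP+ and at 41.2 and 34.7 CPM in GFP- cells. Every GFP+ library was above every GFP- library. *Sox2* was 23.1-fold higher in GFP+ cells at P1 (log2 4.53 ± 0.28 SE, adjusted p = 7.24e-05) and 8.46-fold higher at P6 (log2 3.08 ± 0.23, adjusted p = 0.00109). The P1 log2 fold change was 4.99 without P1 GFP- replicate 2 and 4.16 without replicate 1.

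*Sox21*, a SoxB factor known mainly as a repressor, was at 189.7 and 183 CPM in P1 GFP+ and at 6.33 and 17.0 CPM in P1 GFP- cells. Its P6 levels were 121 and 87.1 CPM in GFP+ and 11.3 and 7.59 CPM in GFP- cells. The fractions did not overlap at either age, and the higher P1 GFP- value lay in the library that was also higher for *Sox2*. The difference was 16.9-fold at P1 (log2 4.08 ± 0.44, adjusted p = 0.000597) and 10.96-fold at P6 (log2 3.45 ± 0.30, adjusted p = 0.0016). At P1 the log2 value was 4.97 without P1 GFP- replicate 2 and 3.53 without replicate 1.

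The ratio of the SoxB genes within a library did not separate the fractions. The log2 ratio of *Sox21* to *Sox2* RPKM was -2.29 ± 0.079 (SD, n = 4) in GFP+ and -2.33 ± 0.47 in GFP- libraries, a difference of 0.033 whose libraries overlapped (exact two-sided permutation test, adjusted p = 0.886 over 6 ratios). Within an age the difference was -0.32 at P1 and 0.39 at P6. The spread was wider in GFP- cells, where the linear ratio ran from 0.142 in P6 GFP- replicate 2 to 0.309 in P1 GFP- replicate 2. In these low GFP- levels the P1 replicates differed by 0.83 for *Sox2* and 1.44 for *Sox21* on the log2 scale.

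Genes known as partners or targets of Sox2 in the prosensory domain and supporting cells were mostly higher in GFP+ cells too. Of 12 such genes, 11 were called higher at P1 (median log2 4.25) and 8 at P6 (median 3.30), and 0 were called lower at either age. The list shares *Lfng*, *Jag1*, *Hes5*, *Prox1* and *Cdkn1b* with the supporting cell markers, and the transgene itself is driven by *Lfng* sequences. The 4 with the highest levels were *Lfng*, a modifier of Notch, the Notch ligand *Jag1*, the receptor *Notch1* and the transcription factor *Gata3*. At P1 their log2 fold changes were 6.83 for *Lfng*, 4.31 for *Jag1*, 2.14 for *Notch1* and 4.18 for *Gata3*. At P6 *Notch1* did not pass (0.72 ± 0.25, adjusted p = 0.078), and the other 3 were higher with values of 6.36, 4.11 and 2.41 in the same order.

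Neither SoxC gene was called between the fractions at either age. *Sox4* was at 159 and 181 CPM in P1 GFP+ and at 185 and 218 CPM in P1 GFP- cells. These CPM values lie apart but overlapped after TMM scaling, and the log2 fold change was -0.14 ± 0.11 (adjusted p = 0.322). At P6 *Sox4* was at 124 and 153 CPM in GFP+ and at 275 and 243 CPM in GFP- cells. The P6 fractions did not overlap, with a log2 fold change of -0.91 ± 0.19 that missed the threshold (adjusted p = 0.0173).

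*Sox11* was at 194 and 202 CPM in P1 GFP+ and at 271 and 235 CPM in P1 GFP- cells. By P6 it stood at 19.9 and 33.6 CPM in GFP+ and at 59.9 and 74.9 CPM in GFP- cells. All GFP+ libraries lay below the GFP- libraries of the same age. The log2 fold changes between the fractions were -0.25 ± 0.10 at P1 (adjusted p = 0.0917) and -1.34 ± 0.27 at P6 (adjusted p = 0.0162), so neither was called. Without P1 GFP- replicate 2, the log2 fold change of *Sox11* at P1 was -0.36. Without P6 GFP+ replicate 2, the values of *Sox4* and *Sox11* at P6 were -1.04 (adjusted p = 0.000148) and -1.74 (adjusted p = 8.06e-07), and without replicate 1 they were -0.73 (adjusted p = 0.0033) and -0.98 (adjusted p = 0.000222). Both would then be called lower, as were 22.6% of all genes without replicate 2 and 14.7% without replicate 1, with the spread taken from the GFP- libraries.

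Of 3 genes known as targets of SoxC factors, 2 were lower in GFP+ cells at P1 (median log2 -3.56) and 0 were called at P6 (median -0.54). The neuronal tubulin *Tubb3* (log2 -3.56 ± 0.65) and the migrating neuron gene *Dcx* (-4.24 ± 0.65) were lower at P1, and *Tead2*, a partner of Yap, had a log2 fold change of 0.0033 ± 0.093. Both genes that differed also mark neurons, and 6 of 8 neuronal markers were lower in GFP+ cells at P1 and 1 was higher. The summed level of the neuronal markers was 330 and 342 CPM in P1 GFP+ libraries and 238 and 741 CPM in P1 GFP- libraries. *Isl1*, the marker that was higher, made up 280 and 292 CPM of these GFP+ sums and 44.3 and 108 CPM of the GFP- sums. The GFP+ sums thus rest mostly on this gene, and the part of neurons in the SoxC values was not tested.

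SoxD genes differed from each other, with *Sox6* and *Sox13* higher in GFP+ cells and *Sox5* at similar levels. *Sox6* was at 116 and 110.3 CPM in P1 GFP+ and at 15.0 and 16.1 CPM in P1 GFP- cells. At P6 it was at 65.5 and 92.8 CPM in GFP+ and at 21.0 and 18.5 CPM in GFP- cells. The fractions did not overlap at either age. *Sox6* was 7.81-fold higher at P1 (log2 2.97 ± 0.10, adjusted p = 1.35e-05) and 3.98-fold higher at P6 (1.99 ± 0.21, adjusted p = 0.00279).

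*Sox13*, the SoxD member with the highest level, was at 319 and 349 CPM in P1 GFP+ and at 58.1 and 59.9 CPM in P1 GFP- cells. On day 6 it was at 276 and 251 CPM in GFP+ and at 62.9 and 75.8 CPM in GFP- cells. Again every GFP+ library was above every GFP- library. The differences were 6.07-fold at P1 (log2 2.60 ± 0.091, adjusted p = 1.4e-05) and 3.79-fold at P6 (1.92 ± 0.19, adjusted p = 0.00213).

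*Sox5*, which acts with Sox6 in cartilage, was at 52.6 and 49.2 CPM in P1 GFP+ and at 43.1 and 35.9 CPM in P1 GFP- cells. In the P6 libraries it was at 27.2 and 37.5 CPM in GFP+ and at 43.7 and 39.3 CPM in GFP- cells. GFP+ libraries were thus above GFP- libraries at P1 and below them at P6. Neither difference was called, with log2 fold changes of 0.47 ± 0.12 at P1 (adjusted p = 0.0209) and -0.37 ± 0.20 at P6 (adjusted p = 0.208). The log2 value at P1 was 0.58 without P1 GFP- replicate 1 and 0.33 without replicate 2, and at P6 it was -0.59 without P6 GFP+ replicate 2. *Sox5* spans 953553 bases with 25 exon blocks, and 1330 of its exon bases overlap an antisense transcript with 12 counts in all 8 libraries together.

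Ratios within a library do not depend on how libraries were scaled, and they set *Sox5* apart from the other SoxD genes. The *Sox6* to *Sox5* ratio of RPKM was 3.59 to 4.02 in the 4 GFP+ libraries and 0.565 to 0.781 in the 4 GFP- libraries. The log2 ratio was higher in GFP+ cells by 2.42 over both ages, by 2.49 at P1 and by 2.36 at P6. The *Sox13* to *Sox5* ratio was 20.2 to 33.8 in GFP+ and at most 6.43 in GFP- libraries, a log2 difference of 2.22 over both ages, 2.13 at P1 and 2.31 at P6. The libraries of the fractions did not overlap for either ratio (exact two-sided permutation test, p = 0.0286 for each, the smallest that 4 against 4 libraries can give, adjusted p = 0.0429 over 6 ratios). For all 6 ratios the labels of the fractions were permuted over both ages. This treats P1 and P6 libraries as exchangeable, which a ratio that changes with age does not meet. Within 1 age, the exact permutation test of 2 libraries against 2 cannot go below p = 0.333.

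**Figure D3:**
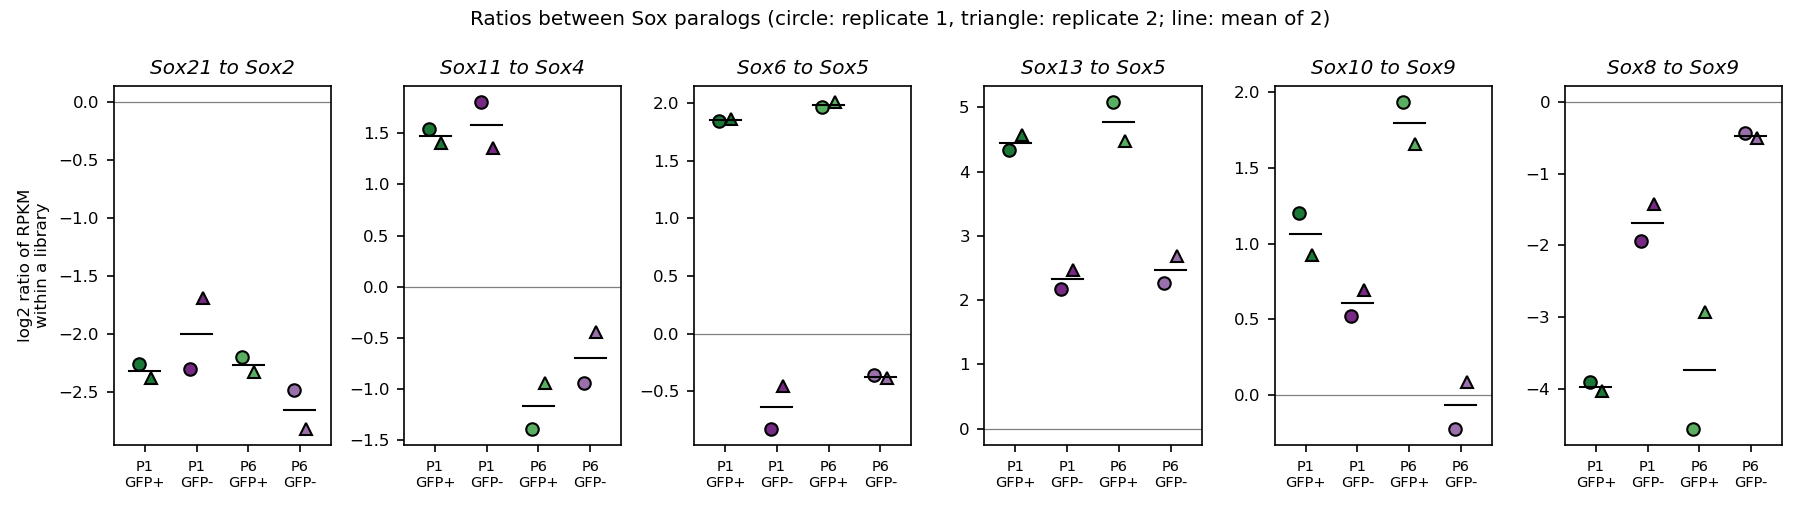
Log2 ratio of RPKM between 2 *Sox* genes of the same group within each library (vertical axes, each with its own scale that need not start at 0), with circles for replicate 1, triangles for replicate 2 and lines at the mean of 2. *Sox6* to *Sox5*, *Sox13* to *Sox5*, *Sox10* to *Sox9* and *Sox8* to *Sox9* separate all GFP+ from all GFP- libraries, while *Sox11* to *Sox4* separates P1 from P6 libraries.

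No cartilage gene listed as regulated by Sox9 with Sox5 and Sox6 was called higher in GFP+ cells at either age. Of 11 such genes, 0 were higher and 7 were lower in GFP+ cells at P1 (median log2 -1.27), and 0 were higher and 3 were lower at P6 (median -1.76). The 4 with the highest levels encode cartilage collagens. At P1 *Col2a1* (log2 -1.27 ± 0.19) and *Col9a1* (-2.55 ± 0.13) were lower, and *Col11a2* (-0.42 ± 0.15, adjusted p = 0.0622) and *Col9a2* (0.052 ± 0.14, adjusted p = 0.787) were not called. The list holds all 9 chondrocyte markers, whose summed level was 10393 and 12855 CPM in P1 GFP+ and 26035 and 26808 CPM in P1 GFP- libraries, and 13961 to 18058 CPM and 62221 to 62441 CPM at P6. No chondrocyte marker was at 0 in any library, and the part of chondrocytes in the SoxD and *Sox9* values was not tested.

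SoxE genes differed from each other in direction. *Sox10*, known from the otic epithelium, Schwann cells and melanocytes, was at 275 and 286 CPM in P1 GFP+ and at 95.9 and 148 CPM in P1 GFP- cells. At P6 it was at 340.0 and 306 CPM in GFP+ and at 87.6 and 95.1 CPM in GFP- cells. The fractions did not overlap at either age. *Sox10* was 2.47-fold higher in GFP+ cells at P1 (log2 1.31 ± 0.20, adjusted p = 0.00253) and 3.52-fold higher at P6 (1.82 ± 0.18, adjusted p = 0.00222).

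*Sox9*, the regulator of cartilage, was at 182 and 229 CPM in P1 GFP+ and at 102 and 139.7 CPM in P1 GFP- cells. By P6 it stood at 136 and 148 CPM in GFP+ and at 156 and 137 CPM in GFP- cells. It was 1.83-fold higher in GFP+ cells at P1 (log2 0.87 ± 0.17, adjusted p = 0.00745), a call that was lost when library totals replaced TMM (0.77, adjusted p = 0.0142). At P6 the fractions overlapped, with a log2 fold change of -0.054 ± 0.17 (adjusted p = 0.829).

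*Sox8*, the SoxE gene with the lowest level in GFP+ cells, was at 9.10 and 10.5 CPM in P1 GFP+ and at 20.1 and 39.2 CPM in P1 GFP- cells. The P6 values were 4.33 and 14.7 CPM in GFP+ and 87.2 and 72.8 CPM in GFP- cells. GFP- libraries were above GFP+ libraries at both ages. *Sox8* was 2.82-fold lower in GFP+ cells at P1 (log2 -1.50 ± 0.31, adjusted p = 0.00892), a call that was lost with all 8 libraries in the fit (-1.51, adjusted p = 0.0333). The P1 value was -0.95 without P1 GFP- replicate 2 and -1.93 without replicate 1. At P6 the log2 fold change was -3.07 ± 0.53 and missed the threshold (adjusted p = 0.0105). The higher of the P6 GFP+ values came from the replicate that stood apart, and the log2 fold change was -4.19 without it and -2.42 without replicate 1, both called with the spread of the GFP- libraries alone.

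The balance of SoxE genes within a library separated the fractions. *Sox10* per *Sox9* RPKM was 1.90 to 3.82 in GFP+ and 0.856 to 1.61 in GFP- libraries, a log2 difference of 1.16 over both ages, 0.46 at P1 and 1.87 at P6. *Sox8* per *Sox9* RPKM was 0.0424 to 0.132 in GFP+ and 0.262 to 0.741 in GFP- libraries, a log2 difference of -2.79 over both ages, -2.30 at P1 and -3.28 at P6. Neither ratio overlapped between the fractions (exact two-sided permutation test, p = 0.0286 and adjusted p = 0.0429 for each).

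No gene known to be driven by SoxE factors in the neural crest lineage was called higher in GFP+ cells at either age. Of 11 such genes, 0 were higher and 7 were lower at P1 (median log2 -1.94), and 0 were higher and 2 were lower at P6 (median -0.32). The list shares 5 genes with the Schwann cell markers and 2 with the melanocyte markers. *Mbp*, which encodes myelin basic protein, had a log2 fold change of -1.94 at P1, the melanocyte enzyme *Dct* -7.34 and the endothelin receptor *Ednrb* -1.22, and all 3 were lower. At P6 *Dct* was lower (-3.41 ± 0.55), and *Mbp* (0.035 ± 0.38) and *Ednrb* (-0.76 ± 0.19, adjusted p = 0.0281) were not called. Some genes lay above 0 without overlap at P6 and missed the threshold, while the median was below 0. They were *Gjb1* (1.26, adjusted p = 0.0325), *Ret* (0.92, adjusted p = 0.0316) and *Erbb3* (0.77, adjusted p = 0.0241). *Gjb1* did so at P1 too (1.53, adjusted p = 0.0168), where 7 of the 11 were called lower.

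Markers of other SoxE-expressing cells moved between libraries as well. Of 8 Schwann cell markers, 5 were lower in GFP+ cells at P1 and 0 were called at P6. Their summed level was 355 and 489 CPM in P1 GFP+, 992 and 1069 CPM in P1 GFP-, 1099.6 and 2480 CPM in P6 GFP+ and 1648 and 1888 CPM in P6 GFP- libraries, with no marker at 0. *Sox10* was at 340 and 306 CPM in P6 GFP+ replicates 1 and 2, which also differed in the sum of supporting cell markers (7782 and 5813 CPM). At P1 all 6 melanocyte markers found were lower in GFP+ cells, and 3 of them were at P6, with sums of 29.0 to 121 CPM in GFP+ and 377 to 750 CPM in GFP- libraries. *Mlana* was at 0 in both P1 GFP+ libraries and *Tyrp1* in replicate 2. The part of these cells in the SoxE values was not tested.

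The make-up of *Sox* transcripts differed between the groups of cells. The 10 genes together reached 678 ± 28.0 RPKM (SD, n = 2) in P1 GFP+, 284 ± 23.0 in P1 GFP-, 429 ± 25.5 in P6 GFP+ and 221 ± 4.88 in P6 GFP- cells. SoxB took 43.4% ± 0.823 of the sum at P1 and 36.8% ± 4.47 at P6 in GFP+ cells, against 5.01% ± 1.85 and 8.09% ± 0.979 in GFP- cells. SoxC took 59.4% ± 7.56 in P1 GFP- and 39.5% ± 1.13 in P6 GFP- cells, against 19.7% ± 0.0356 and 9.90% ± 2.72 in GFP+ cells. The SoxD share was 13.8% ± 0.0785 and 16.9% ± 0.658 in GFP+ and 6.43% ± 0.509 and 9.59% ± 0.979 in GFP- cells at P1 and P6. SoxE took 23.0% ± 0.709 in P1 GFP+, 29.2% ± 6.21 in P1 GFP-, 36.4% ± 1.09 in P6 GFP+ and 42.8% ± 1.13 in P6 GFP- cells. In GFP+ cells the SoxE sum itself was 156 RPKM at both ages. The other sums there were lower at P6, with SoxB at 294 and 158 RPKM, SoxC at 134 and 42.2 RPKM and SoxD at 93.8 and 72.3 RPKM at P1 and P6. These shares and sums were not tested.

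**Figure D4:**
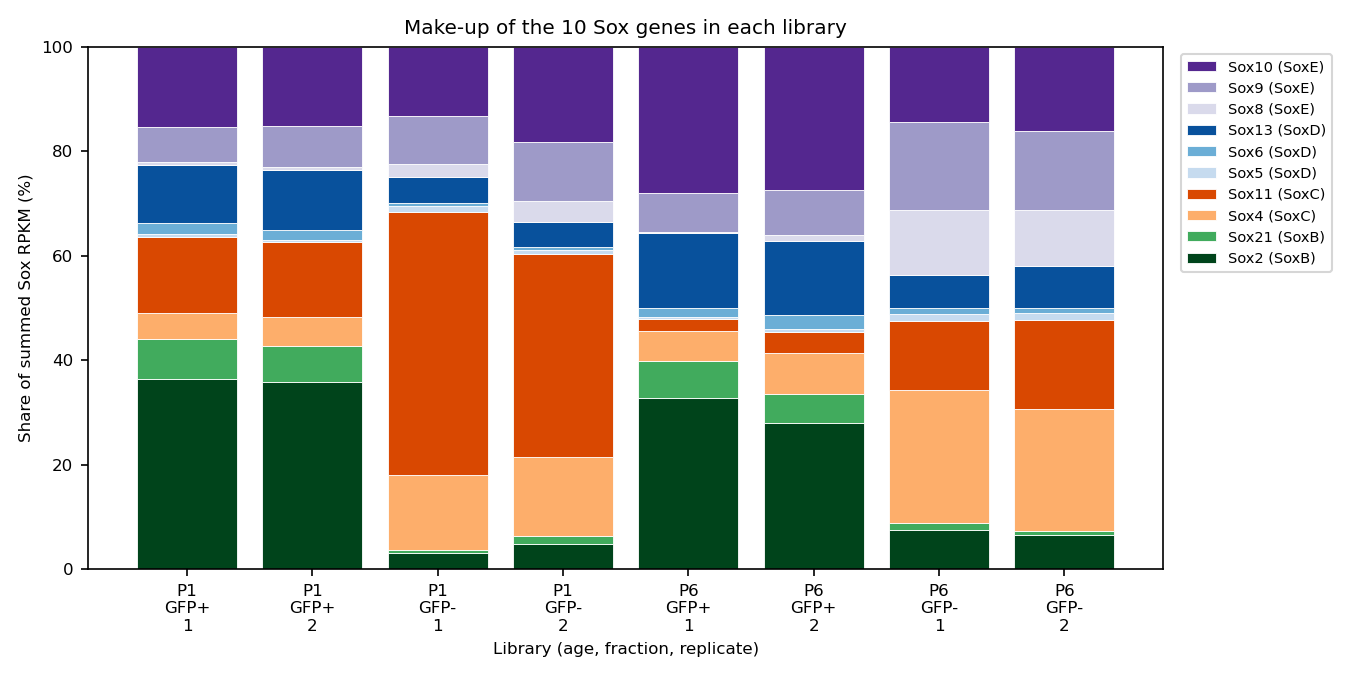
Share of each *Sox* gene in the summed RPKM of the 10 genes (vertical axis, percent) in each of the 8 libraries (horizontal axis). SoxB genes fill 33.6% to 44.0% of the GFP+ bars, SoxC genes 54.0% and 64.7% of the P1 GFP- bars, and SoxE genes more of the GFP+ bars at P6 than at P1. Bars show shares only, and the mean SoxE sum of GFP+ cells was 156 RPKM at both ages.

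Comparing P6 with P1 asked which *Sox* genes change over the days in which supporting cells mature, and *Sox11* was the only 1 of the 10 called in either fraction. Dissection also differed between P1 and P6, so every difference with age below may hold a part of it, which was not tested. In GFP+ cells, 1 of the 10 was lower at P6 (1.95% of the 17213 genes tested) and 0 were higher (2.86%). In GFP- cells, 1 was lower (2.34% of the 18920 genes tested) and 0 were higher (5.04%). Beside the 0 higher, DESeq2 called 0 of the 10 higher in GFP+ (11.1% of genes) and 2 in GFP- cells (10.6%). At an unadjusted p under 0.05 there were 5 of the 10 in GFP+ cells, 0 of them higher, beside 38.2% of all genes, and 7 of the 10 in GFP- cells, 6 of them higher, beside 34.5%. *Sox11* fell 6.95-fold in GFP+ cells (log2 -2.80 ± 0.25, adjusted p = 0.00412) and 3.29-fold in GFP- cells (log2 -1.72 ± 0.14, adjusted p = 0.000768).

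*Sox4*, the other SoxC member, was not called with age. It had a log2 fold change of -0.20 ± 0.14 in GFP+ cells (adjusted p = 0.339) and of 0.56 ± 0.14 in GFP- cells (adjusted p = 0.033). *Sox11* per *Sox4* RPKM was 2.57 to 3.49 in the 4 P1 libraries and 0.382 to 0.734 in the 4 P6 libraries. The log2 ratio dropped by 2.64 in GFP+ and by 2.28 in GFP- cells between the ages. Within an age the fractions differed by -0.11 at P1 and -0.47 at P6 on the log2 scale, and the test pooled over ages (difference -0.29, exact two-sided permutation test, adjusted p = 0.789) cannot bear on a difference of that size, since its spread holds the change with age. Among the SoxC targets, *Tead2* fell in both fractions (log2 -1.48 ± 0.14 in GFP+ and -0.95 ± 0.11 in GFP- cells), *Dcx* fell in GFP- cells (-4.43 ± 0.59) and *Tubb3* rose in GFP+ cells (2.77 ± 0.23). Neuronal markers differed with age too, with 1 of 8 higher in GFP+ and 2 of 8 lower in GFP- cells, and all 5 proliferation markers were lower in GFP- cells at P6 and 0 of 5 were called in GFP+ cells. Their part in the *Sox11* values was not tested.

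The other 9 genes had smaller differences with age. In GFP+ cells the largest of these were -0.81 ± 0.18 for *Sox2* (adjusted p = 0.0372) and -0.74 ± 0.20 for *Sox21* (adjusted p = 0.0569), followed by *Sox5* (-0.56), *Sox9* (-0.44), *Sox6* (-0.43) and *Sox13* (-0.25). *Sox10* was at 0.30 ± 0.14 (adjusted p = 0.18) and *Sox8* at 0.048 ± 0.54 (adjusted p = 0.958). For 9 of the 10 the P1 and P6 GFP+ libraries did not overlap after TMM scaling, beside 69% of all genes tested, and the exception was *Sox8*.

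More members were called with either P6 GFP+ library left out, as were more genes in all. Without replicate 2, 8 of the 10 were called lower (all but *Sox13* and *Sox10*), where 20.7% of all genes were, and *Sox10* higher (0.40), where 22.5% were. Without replicate 1, 5 were called lower (*Sox2*, *Sox21*, *Sox11*, *Sox5* and *Sox9*), where 14.5% of all genes were, and *Sox8* higher, where 20.8% were. *Sox8* changed direction between these fits, at -1.05 without replicate 2 and 0.65 without replicate 1. In both cases the spread was that of the P1 GFP+ libraries alone. *Sox11* was called lower with any library left out.

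In GFP- cells *Sox8* had the largest difference after *Sox11*, 1.62 ± 0.29 on the log2 scale (3.08-fold), which missed the threshold (adjusted p = 0.0111). Its P6 libraries were above its P1 libraries, and its value was 1.21 without P1 GFP- replicate 1 and 2.17 without replicate 2. Smaller values were found for *Sox2* (0.63), *Sox4* (0.56), *Sox6* (0.54), *Sox9* (0.47), *Sox13* (0.42) and *Sox5* (0.27), with adjusted p-values of 0.033 to 0.231. Without P1 GFP- replicate 2, *Sox2* (1.08), *Sox4* (0.66) and *Sox9* (0.70) were called higher as well, as were 9.39% of all genes. *Sox21* (-0.11) and *Sox10* (-0.22) were below 0 and were not called. For 8 of the 10 the ages did not overlap after TMM scaling, beside 64% of all genes tested. When library totals replaced TMM, the median of all genes in this comparison moved from -0.022 to -0.21, so the values above are relative to the TMM median.

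Whether the difference between the fractions itself changed with age was tested with an interaction term fitted to the 8 libraries, where a negative value means a lower GFP+ to GFP- ratio at P6. By edgeR 0 of the 10 were called in either direction (0.946% higher and 0.988% lower of the 19233 genes tested), and DESeq2 called 1 lower (*Sox2*, -1.44, adjusted p = 0.00601), beside 3.3% of genes. At an unadjusted p under 0.05 there were 8 of the 10, beside 21.2% of all genes tested. The value was below 0 for 9 of the 10, with a median of -0.90 beside 0.031 over all genes. The lowest adjusted p was that of *Sox6* (-0.99 ± 0.24, adjusted p = 0.0499), and the only value above 0 was that of *Sox10* (0.50 ± 0.28, adjusted p = 0.366). Without P6 GFP+ replicate 2, *Sox11* (-1.51, adjusted p = 0.00238) and *Sox6* (-1.23, adjusted p = 0.00449) were called lower, as were 3.7% of all genes.

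Patterns over the 8 libraries were compared with those of other genes by the root mean square difference of log2 TMM-scaled CPM, centred on each gene's own mean, among 10901 genes with a mean of at least 10 CPM. The smallest difference between 2 members was 0.24, between *Sox6* and *Sox13* of the SoxD group, and the next was 0.29, between *Sox2* and *Sox21* of the SoxB group. Close behind by this measure came pairs from different groups, *Sox5* and *Sox9* at 0.31 and *Sox4* and *Sox5* at 0.36. Their Pearson correlations were only 0.53 and 0.34, against 0.98 for *Sox6* and *Sox13* and 0.99 for *Sox2* and *Sox21*. *Sox5* and *Sox6* differed by 1.22 and *Sox8* and *Sox10* by 2.15, although each pair shares a group. These values describe 8 libraries that fall into 4 groups.

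The genes nearest to each member differed in how near they came. *Arhgap27* (0.19) and *Nrarp* (0.19), a feedback inhibitor of Notch signaling, were near *Sox2*, behind *BC064078* (0.17). Nearest to *Sox21* were the epithelial keratin *Krt8* (0.20), *B4galnt3* (0.25) and *Jag1* (0.30). *Sox4* lay within 0.094 to 0.098 of *Dusp7*, *Tmem185b* and *Tpbg*. *Sox11* was followed by *Nnat* (0.25), *Kif21b* (0.40) and *Mest* (0.41), of which *Nnat* and *Mest* are imprinted genes.

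For SoxD, the nearest genes were *Bbx*, which also encodes an HMG box protein, *Zcchc6* and *Atp13a3* for *Sox5* (0.089 to 0.098), *Ptprk*, *Rab11fip1* and *Paqr3* for *Sox6* (0.19 to 0.21), and *Hs6st1*, *Rps6ka1* and *Dapk1* for *Sox13* (0.18 each). For SoxE they were *Scn2b*, *Prom1* and *Cdh11* for *Sox8* (0.36 to 0.40), *1190007F08Rik*, *Fbxo46* and *Qsox2* for *Sox9* (0.10 to 0.12), and *Asb13*, *Mtmr11* and *Cyb5r3* for *Sox10* (0.13 to 0.14). Genes with small differences between the groups, such as *Sox4*, *Sox5* and *Sox9*, have many genes near them by construction of the measure.

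The calls between the fractions depended in part on single libraries. At P6, leaving out P6 GFP- replicate 2 left 0 of the 5 calls and called 0% of all 18019 genes tested higher, and leaving out P6 GFP- replicate 1 left 2, *Sox2* and *Sox21*, with 1.97% of all genes called higher. The log2 fold changes without P6 GFP- replicate 2 were nevertheless 2.95 for *Sox2*, 3.18 for *Sox21*, 1.89 for *Sox6*, 2.04 for *Sox13* and 1.86 for *Sox10*, with adjusted p-values of 0.017 to 0.0335. At P1, *Sox2*, *Sox21*, *Sox6* and *Sox13* were called with any library left out, whereas the calls of *Sox8*, *Sox9* and *Sox10* were each lost without P1 GFP+ replicate 1 and without P1 GFP+ replicate 2.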

How the data were processed

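RNA-seq libraries of sorted P1 and P6 cochlear cells were analysed. The authors aligned paired-end reads to mm9 (NCBIM37) with TopHat (version 1.4.0 in the submitters' processing notes, which also name HTSeq and DESeq 1.9.2) and deposited raw counts per Ensembl gene. Libraries were made with a TruSeq kit. The counting mode and use of strand are not given in the sources used here, so reads of members and of transcripts that overlap them on the other strand (*Sox21*, *Sox4*, *Sox5*) may be mixed. Reads listed as on no gene (13.8% to 25.6% of each library), ambiguous (2.05% to 2.53%) or not unique (7.41% to 9.60%) were left out. Of the 36536 genes, 34391 had a symbol, position and exon length in the NCBIM37 annotation.

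CPM were scaled by the gene total and RPKM by union exon length. Comparisons of 2 groups were fitted on their 4 libraries, and the interaction on all 8, with edgeR 4.0.16 in R 4.3.3 (filterByExpr with a minimum count of 10 and minimum total of 15, TMM, quasi-likelihood test, Benjamini-Hochberg over all genes tested). The standard error is the size of the log2 fold change divided by the square root of F. Ratios within a library were tested with exact permutation tests in Python 3.11.15 with scipy 1.17.1. Their threshold was an adjusted p below 0.05, as 4 libraries against 4 cannot reach 0.01. The scripts were tested on simulated counts. Replicates differed by more than sampling noise (chi-square per degree of freedom 15.1 to 58.0).

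The text names all 10 members, the 3 genes nearest to each in pattern, other *Sox* genes that were called, and up to 4 genes of a list by level. A gene that this rule names is not reported here. The members and lists were chosen with earlier results of these data known. Genes named outside this rule were chosen after their values were seen (*Sox7*, *Sox17*, *Sox18*, *Mlana*, *Tyrp1*, *Sox14*, *Gjb1*, *Ret* and *Erbb3*). Alternatives were DESeq2 size factors, library totals, the DESeq2 1.42.0 test, no filter, all 8 libraries, a replicate block, thinning to 17769024 counts, count ratios, and leaving out each library. Replicate numbers were not treated as pairs, since the labels do not say whether libraries of the same number belong together. Correlations of replicate differences between the groups compared were 0.023, 0.06, -0.12 and -0.33. With 1 difference per group, they cannot decide whether libraries were paired.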

Additional observations from a re-analysis of the deposited data

Results flagged for a closer look

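For 6 genes the libraries of both groups moved in opposite directions with age in GFP+ and GFP- cells, each time without overlap after TMM scaling. GFP+ cells were lower and GFP- cells higher at P6, which held for 4.15% of the 19233 genes tested, and 8.16% moved in opposite directions either way. The difference between the directions, taken as the interaction of age and fraction (edgeR, n = 2 libraries per group), was -1.46 for *Sox2* (adjusted p = 0.0619), -0.78 for *Sox4* (adjusted p = 0.0818), -0.85 for *Sox5* (adjusted p = 0.0815), -0.99 for *Sox6* (adjusted p = 0.0499), -0.69 for *Sox13* (adjusted p = 0.0753) and -0.94 for *Sox9* (adjusted p = 0.0793). None passed 0.01. *Sox5* was picked out a second time because its GFP+ libraries were above the GFP- libraries at P1 and below them at P6, which is the same interaction of -0.85, and 5.2% of all genes changed direction in this way. When CPM by gene totals replaced TMM scaling, the GFP- libraries of the 2 ages overlapped for *Sox2*, *Sox5* and *Sox9*, and *Sox4*, *Sox6* and *Sox13* still moved apart.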

How the results depend on the processing

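With the replicate number as a block, 2 genes were called lower at P6 between the fractions (0 without it) and 1 higher with age in GFP- cells (0 without it), the log2 fold change of *Sox8* with age in GFP+ cells was -0.18 and that of *Sox21* with age in GFP- cells 0.014. In the single-gene calls the block added *Sox5* at P1, *Sox11* and *Sox8* at P6 and *Sox8* with age in GFP- cells. A crossed block, chosen after seeing the data because the replicate differences of the ages correlated negatively, called 4 higher with age in GFP- cells.

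The count of genes lower in GFP+ cells at P6, 0 as reported, was 1 with DESeq2 size factors or after thinning, and 3 with the DESeq2 test, without the filter or with all 8 libraries. The count lower at P1 was 0 with all 8 libraries. The count lower with age in GFP+ cells was 2 with the DESeq2 test and 3 without the filter, and the count higher with age in GFP- cells was 1 with DESeq2 size factors, 2 with the DESeq2 test and 5 without the filter. The interaction gave 1 lower with the DESeq2 test and 5 without the filter. Leaving out 1 library gave 4 to 7 higher and 0 to 2 lower at P1, 0 to 5 higher and 0 to 4 lower at P6, 0 to 1 higher and 1 to 8 lower with age in GFP+ cells, 0 to 4 higher with age in GFP- cells, and 0 to 2 lower for the interaction. The cause was not tested, beyond the smaller number of libraries. Shares of all genes called are given above only for some counts of the DESeq2 test and of the fits with 1 library left out. The other counts here and those with a block have no such share beside them. For these, a change in the *Sox* genes cannot be told from a change in calls over all genes.

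Values near 0 changed sign. *Sox8* with age in GFP+ cells was -0.031 with library totals, -0.091 after thinning and -0.15 with the crossed block, and *Sox21* with age in GFP- cells was 0.013 with the crossed block. With 1 library left out, values ran from -1.05 to 0.65 for *Sox8* with age in GFP+ cells (-0.038 without P1 GFP+ replicate 1), from -0.16 to 0.10 for *Sox9* at P6 (0.036 without P6 GFP+ replicate 1), and, with age in GFP- cells, from -0.67 to 0.76 for *Sox21* (0.18 without P6 GFP- replicate 2) and from -0.52 to 0.11 for *Sox10*. The log2 ratio differences ran from -0.13 to 0.24 for *Sox21* to *Sox2* and from -0.75 to 0.23 for *Sox11* to *Sox4*, and their signs changed. Those with an adjusted p below 0.05 over all libraries ran from 2.32 to 2.47 for *Sox6* to *Sox5* and 2.06 to 2.31 for *Sox13* to *Sox5*. They ran from 0.99 to 1.33 for *Sox10* to *Sox9* and -3.10 to -2.55 for *Sox8* to *Sox9*. All had an adjusted p of 0.0857 by the exact permutation test, since 3 libraries against 4 cannot pass 0.05 after adjustment. Of the values for single genes, 505 kept their direction and side of the threshold, 66 passed it, 16 no longer did and 13 changed sign. With 2 libraries per group, differences of small size could not be told from the spread.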

Other observations

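Other *Sox* genes were measured beside the 10. *Sox12*, the third SoxC gene, was at 42.5 and 50.3 CPM in P1 GFP+, 94.3 and 89.4 CPM in P1 GFP-, 21.3 and 23.1 CPM in P6 GFP+ and 38.8 and 40.1 CPM in P6 GFP- cells. It was lower in GFP+ cells at P1 (log2 -0.89 ± 0.10, adjusted p = 0.000743) and fell with age in GFP- cells (-1.03 ± 0.10, adjusted p = 0.00143), with values of -0.83 (adjusted p = 0.0123) between the fractions at P6 and -0.97 (adjusted p = 0.0131) with age in GFP+ cells. *Sox3*, a close relative of *Sox2*, was at 0 to 1.06 CPM and lower in GFP+ cells at P1 (-3.10 ± 0.48, adjusted p = 0.00265), opposite to *Sox2*. *Sox14* was at 0 in all 8 libraries.

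The SoxF genes *Sox7*, *Sox17* and *Sox18*, known from endothelial cells, had their highest levels in P6 GFP+ replicate 2, at 5.19, 10.4 and 7.70 CPM, against 2.19, 2.93 and 3.04 CPM in replicate 1. The summed level of 5 endothelial markers was 201 CPM in replicate 2 and 51.9 CPM in replicate 1, beside 126 and 135 CPM in P6 GFP- libraries.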
